A study of Mus musculus with 6 samples.

Results

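Expression of 10 Wnt target and effector genes was followed through a culture series that leads from pluripotent mouse cells to oligodendrocytes, the myelin-forming cells of the central nervous system. The genes were chosen by name, and each was read from the row of the expression table whose single gene symbol matched. A row was found for 9 of the 10 (Lgr5, Axin2, Lef1, Tcf7l1, Tcf7l2, Nkd1, Apcdd1, Sfrp1 and Dkk1), out of 19938 genes in all, and each of the 9 had 1 row. The expression of Tcf7 was not analysed here.

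All 6 cultures were of strain 129, and each was measured on 1 Affymetrix whole-transcript array. The epiblast stem cell (EpiSC) culture, 1 array, was grown in Knockout DMEM with KSR and FGF2 and represents the epiblast of the early embryo. The rosette culture, 1 array, was taken at day 5 after treatment with SB431542, Dorsomorphin, Noggin, RA (retinoic acid) and SHH (sonic hedgehog), and its stage is labelled ventral neural tube. Oligodendrocyte progenitor cells (OPCs), 2 arrays at passages 3 and 11, came from dissociated rosettes and were grown in N2B27 medium with FGF2, PDGF-AA and SHH. Oligodendrocytes, 2 arrays at passages 3 and 11, were made from those OPCs by adding thyroid hormone and withdrawing FGF2 and PDGF-AA. No genotype, transgene or animal age was given. Arrays of 1 cell type are labelled as differing in passage alone, so a p-value here reflects the spread between these arrays, which may be technical. All values are RMA values on the log2 scale, which combine background correction, normalization between arrays and a summary over the probes of a transcript.

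In the canonical Wnt pathway, a secreted Wnt protein binds a Frizzled receptor and an LRP co-receptor, which stops the destruction complex from degrading beta-catenin. Beta-catenin then binds TCF and LEF proteins on DNA and switches on target genes, several of which encode inhibitors that feed back on the pathway. R-spondins, acting through LGR receptors, strengthen the signal. In the oligodendrocyte lineage, strong Wnt signalling is known to hold back the maturation of progenitors, and Tcf7l2 is known as a factor of newly formed oligodendrocytes.

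The labelled cell types were set against defining markers. All 6 EpiSC markers (Pou5f1, Nanog, Fgf5, Utf1, Tdgf1 and Otx2) were above the median of all values, 9.0, on the EpiSC array. All 7 rosette markers were above it on the rosette array, together with all 9 neuronal markers. Of those 9 neuronal markers, 3 were also above the median on the EpiSC array. On the arrays of passages 3 and 11 they numbered 6 and 5 in OPCs and 7 and 5 in oligodendrocytes. All 8 OPC markers were above it on both OPC arrays, and of 9 oligodendrocyte markers 8 and 9 were above it on the oligodendrocyte arrays of passages 3 and 11, against 3 on each OPC array. Of 7 microglial markers at most 1 was above the median on any array, and of 8 endothelial markers at most 2. Of 8 pericyte and fibroblast markers, 4 to 6 were above the median on each array, and of 6 neural crest and Schwann cell markers 1 to 4. All 8 OPC markers were also above it on both oligodendrocyte arrays, and at least 5 of 7 rosette markers on every array. The median alone therefore did not separate these cell types. The mean log2 level of 8 astrocyte markers was 9.38 in EpiSCs, 9.43 in the rosette, 10.48 and 10.02 in OPCs and 10.96 and 10.72 in oligodendrocytes (passages 3 and 11), with the defining marker Gfap at 8.11 on both OPC arrays and at 10.50 and 8.69 in oligodendrocytes. In bulk RNA, fewer cells that express a gene and less of its RNA per cell cannot be told apart.

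The 9 genes fell into 4 kinds of profile. Lef1, Tcf7l1 and Dkk1 had their highest value in EpiSCs, Lgr5 and Tcf7l2 were higher in OPCs than in EpiSCs, and the feedback genes Axin2, Nkd1 and Apcdd1 spanned less than 1 log2 unit over the 6 arrays. Sfrp1 was highest in the rosette.

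**Figure D1:**
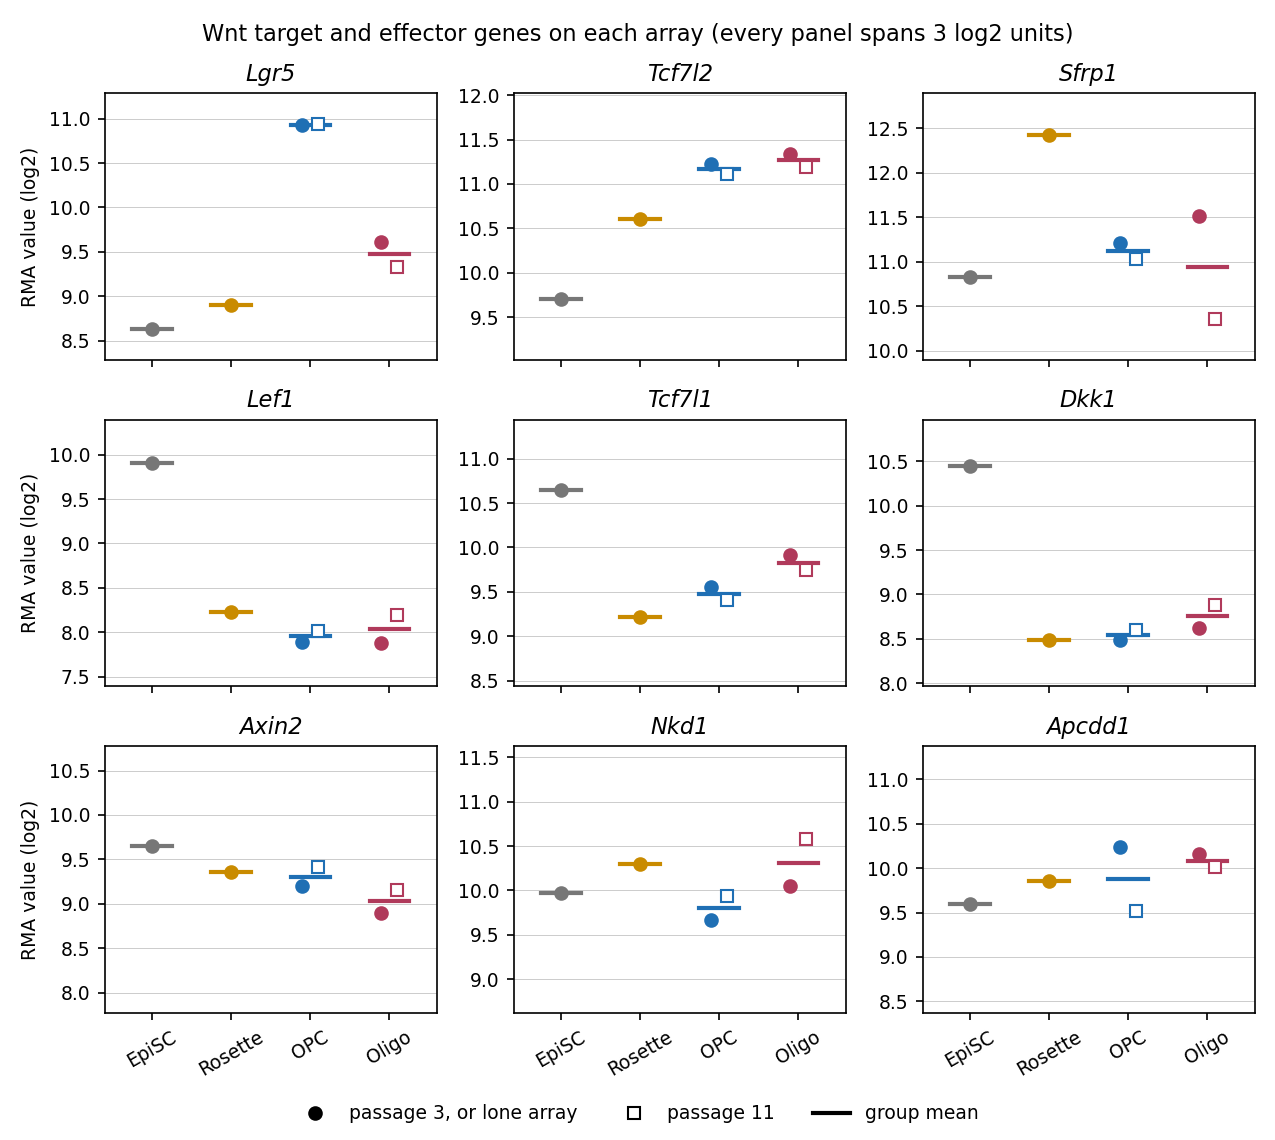
RMA value (log2) of each gene on each of the 6 arrays, by cell type; filled circles are passage 3 or a lone array, open squares passage 11, and bars the group means, with every panel spanning 3 log2 units. Lgr5 sits at 10.93 and 10.94 in OPCs against 8.63 in EpiSCs, and Lef1, Tcf7l1 and Dkk1 are each highest on the EpiSC array.

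Comparison of OPCs with EpiSCs, both grown with FGF2, gave the most calls among the 9 genes. Lgr5 and Tcf7l2 were higher in OPCs and Lef1, Dkk1 and Tcf7l1 were lower, which made 5 of 9 called at a limma adjusted p under 0.05, where 7.01% of all 19938 genes were called (4.07% higher and 2.93% lower). The median difference of the 9 was -0.16, beside -0.05 over all genes. OPCs enter with 2 arrays and EpiSCs with 1, whose spread was assumed equal to that of the OPC and oligodendrocyte pairs. The OPC arrays are shared with the comparisons with the rosette and with oligodendrocytes, so these comparisons are not independent.

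Lgr5 encodes a receptor for R-spondins and is both a Wnt target and a marker of stem cells in several epithelia. Its value was 8.63 in EpiSCs, 8.90 in the rosette, 10.93 and 10.94 in OPCs at passages 3 and 11, and 9.62 and 9.33 in oligodendrocytes. The OPC arrays were the highest, the oligodendrocyte arrays lay between them and the rosette, and no 2 groups overlapped. OPCs exceeded EpiSCs by 2.30 ± 0.19 (SE; 4.94-fold, adjusted p = 0.00482). Against the rosette the difference was 2.04 ± 0.19 (4.10-fold, adjusted p = 0.0115), where 3.13% of all genes were called (1.26% higher and 1.87% lower) and Lgr5 was the only one of the 9 (1206 genes in place of 624 were called with passage as a block). The 2 OPC arrays differed by 0.0093, far less than either difference. Without OPC replicate 1 the adjusted p against the rosette was 0.0544, and without OPC replicate 2 it was 0.0628, with differences of 2.04 and 2.03.

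Lgr5 was lower again in oligodendrocytes, by -1.46 ± 0.16 (2.75-fold, adjusted p = 0.0441), with -1.31 at passage 3 and -1.61 at passage 11. It was the only one of the 9 called in that comparison, in which 0.446% of all genes were called (0.396% higher), and 1 of the 10 genes called lower (0.0502%). Among those 10 it had the fifth largest difference. The call is close to its threshold and was lost with passage as a block (adjusted p = 0.0534), with a mean-variance trend (0.0529), after a repeated quantile normalization (0.0707), over all 35556 rows (0.151), without OPC replicate 1 (0.25) and without OPC replicate 2 (0.291), while the difference stayed between -1.60 and -1.32. All 8 OPC markers were also called higher in OPCs than in the rosette, as were 2 of 8 astrocyte markers (Aldoc and Slc1a3), and the part of any cell type in the Lgr5 values was not tested.

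Other receptors of the pathway gave different profiles. Of 19 receptor genes, 1 was called higher in OPCs than in the rosette and 1 lower, beside 1.26% and 1.87% of all genes. Fzd4, a Frizzled receptor that also binds Norrin, measured 8.31 in EpiSCs, 8.62 in the rosette, 10.72 and 10.60 in OPCs and 9.82 and 9.18 in oligodendrocytes. It was higher in OPCs than in the rosette by 2.04 ± 0.29 (adjusted p = 0.0334). Its difference of -1.16 ± 0.24 in oligodendrocytes against OPCs missed the threshold (adjusted p = 0.167). With 1 OPC or oligodendrocyte array left out, the latter difference ranged from -1.48 to -0.84. Like Lgr5, Fzd4 was highest on the 2 OPC arrays. Lgr4, the relative of Lgr5 that is widely expressed, was lower in OPCs than in the rosette by -2.13 ± 0.35 (adjusted p = 0.0459), with 11.36 in EpiSCs, 11.80 in the rosette, 9.97 and 9.37 in OPCs and 9.76 and 9.21 in oligodendrocytes. Lgr6 spanned 8.48 to 8.91. Without OPC replicate 1 the calls of Fzd4 and Lgr4 against the rosette were lost (adjusted p = 0.101 and 0.0542), as they were without OPC replicate 2 (0.104 and 0.126).

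The 4 TCF and LEF proteins share a DNA-binding domain that recognises sites built on CTTTG, and they differ in use: Tcf7l1 is known mainly as a repressor in pluripotent cells, Lef1 mainly as an activator, and Tcf7l2 can act in both ways. The 250 bases before the annotated start are shown for the genes whose level differed between EpiSCs and OPCs, except Lgr5, because such sites are where TCF and LEF proteins bind. They are RefSeq sequences on build GRCm38.p6, on the strand of the gene, and capitals mark each CTTTG on that strand or its complement CAAAG.
Dkk1 (chr19:30549497-30549746, minus strand): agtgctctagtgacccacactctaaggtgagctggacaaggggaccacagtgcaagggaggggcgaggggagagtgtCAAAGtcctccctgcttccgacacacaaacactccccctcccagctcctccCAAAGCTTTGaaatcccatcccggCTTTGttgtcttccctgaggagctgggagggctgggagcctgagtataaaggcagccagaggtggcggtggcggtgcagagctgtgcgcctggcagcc
Lef1 (chr3:131110047-131110296, plus strand, the first of 4 starts): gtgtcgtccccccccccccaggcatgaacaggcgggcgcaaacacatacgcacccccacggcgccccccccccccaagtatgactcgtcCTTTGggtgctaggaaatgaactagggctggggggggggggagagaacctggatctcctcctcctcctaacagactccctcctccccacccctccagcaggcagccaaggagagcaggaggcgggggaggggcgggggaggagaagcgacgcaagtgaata
Tcf7l1 (chr6:72789046-72789295, minus strand): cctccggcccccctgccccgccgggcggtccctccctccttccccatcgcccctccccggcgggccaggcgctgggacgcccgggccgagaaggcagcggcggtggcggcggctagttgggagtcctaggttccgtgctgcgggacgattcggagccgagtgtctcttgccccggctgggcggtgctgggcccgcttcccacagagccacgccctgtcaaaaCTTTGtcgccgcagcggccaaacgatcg
Tcf7l2 (chr19:55741560-55741809, plus strand, the first of 2 starts): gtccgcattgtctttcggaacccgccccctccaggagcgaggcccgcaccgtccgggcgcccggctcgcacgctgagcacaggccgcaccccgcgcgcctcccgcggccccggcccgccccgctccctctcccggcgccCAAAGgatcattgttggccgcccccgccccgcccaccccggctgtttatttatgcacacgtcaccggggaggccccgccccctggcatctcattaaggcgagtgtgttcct
The Dkk1 window held the core 4 times, and the other 3 windows held it 1 time each. The core alone is common, being found on either strand in 48.6% of 32851 such windows. The core was also searched with 2 more bases, on both strands. CTTTGAA was found in 4.46% of windows. The share with CTTTGAT was 3.21%. For CTTTGTA it was 3.20%. For CTTTGTT it was 5.03%, and 14.8% held at least 1 of these longer forms, which all contain the core. In Dkk1 there were 2 of them, the form ending in AA from 117 to 111 bases before the start and the form ending in TT from 98 to 92 bases before it, and the other 3 windows shown held none. Windows were given for 7 of the 10 genes, 12 windows in all. The core was in 8 of the 12, and in no window of Axin2, Nkd1 or Tcf7. The first and second windows of Lef1 overlap and share a match, so the 12 are not separate. A longer form was in 3 of the 12: that of Dkk1, the fourth of Lef1 and the second of Tcf7l2. A match is only a match of letters.

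Lef1, the LEF family member that is itself a Wnt target, measured 9.90 in EpiSCs, 8.23 in the rosette, 7.89 and 8.02 in OPCs and 7.88 and 8.20 in oligodendrocytes. EpiSCs stood apart, and the values of the other 5 arrays lay within 0.35 log2 of one another, all below the median of all values. OPCs were lower than EpiSCs by -1.95 ± 0.21 (3.85-fold, adjusted p = 0.00896). The differences of OPCs from the rosette (-0.27 ± 0.21, adjusted p = 0.68) and of oligodendrocytes from OPCs (0.08 ± 0.17, adjusted p = 0.963) did not pass, with a 95% interval of -0.34 to 0.51 for the latter.

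Tcf7l1 measured 10.65 in EpiSCs, 9.22 in the rosette, 9.55 and 9.41 in OPCs and 9.91 and 9.74 in oligodendrocytes. The rosette was the lowest, and the oligodendrocyte arrays lay above both OPC arrays. OPCs were lower than EpiSCs by -1.17 ± 0.18 (2.25-fold, adjusted p = 0.0254). Oligodendrocytes exceeded OPCs by 0.35 ± 0.15, which did not pass (adjusted p = 0.445), although the difference was positive at both passages, 0.36 and 0.33. The call against EpiSCs was lost over all 35556 rows (adjusted p = 0.0661), without OPC replicate 1 (0.118) and without OPC replicate 2 (0.164).

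Tcf7l2 went the opposite way, from 9.70 in EpiSCs and 10.61 in the rosette to 11.23 and 11.11 in OPCs and 11.34 and 11.19 in oligodendrocytes. EpiSCs were the lowest, the rosette was intermediate, and the ranges of OPCs and oligodendrocytes overlapped. OPCs exceeded EpiSCs by 1.47 ± 0.18 (2.77-fold, adjusted p = 0.0127; 0.0821 without OPC replicate 1 and 0.0686 without OPC replicate 2). The OPC difference from the rosette, 0.56 ± 0.18, did not pass (adjusted p = 0.213), and the rosette itself was 0.91 above EpiSCs. Oligodendrocytes differed from OPCs by 0.10 ± 0.14 (adjusted p = 0.938), with a 95% interval of -0.27 to 0.46, which leaves out a 2-fold change in either direction. Over the same step 8 of 9 oligodendrocyte markers were called higher, beside 0.396% of all genes. The 8 included Mbp, Mag and Mog, genes of the myelin sheath, and Opalin was not called (adjusted p = 0.352). With all rows tested only 1 gene was called over this step, so at most 1 of the 8 calls was kept there.

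Over all genes, 4.07% were called higher in OPCs than in EpiSCs and 1.87% lower in OPCs than in the rosette. Of 16 genes for TCF cofactors, 1 was called higher in OPCs than in EpiSCs, Tle5 at 1.08 ± 0.17 (adjusted p = 0.0281). Of the same 16, 1 was called lower in OPCs than in the rosette, the corepressor gene Tle1 at -1.55 ± 0.21 (adjusted p = 0.0283). Both calls were lost over all 35556 rows (adjusted p = 0.0717 for Tle5 and 0.0808 for Tle1), without OPC replicate 1 (0.166 and 0.0892) and without OPC replicate 2 (0.168 and 0.149). Tle1 measured 10.61 in the rosette and between 8.90 and 9.35 on the other 5 arrays. Ctnnb1, the gene of beta-catenin, stayed between 13.00 and 13.30 on all 6 arrays.

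Axin2 encodes a scaffold of the destruction complex and is widely used as a readout of canonical Wnt signalling. It measured 9.66 in EpiSCs, 9.36 in the rosette, 9.20 and 9.42 in OPCs and 8.89 and 9.16 in oligodendrocytes. EpiSCs were the highest and the passage 3 oligodendrocytes the lowest, but the rosette lay within the OPC values. OPCs differed from EpiSCs by -0.35 ± 0.21 (adjusted p = 0.468), from the rosette by -0.06 ± 0.21 (adjusted p = 0.955) and from oligodendrocytes by an amount that also missed the threshold (oligodendrocytes minus OPCs -0.28 ± 0.17, adjusted p = 0.638). The 95% interval against the rosette was -0.58 to 0.47.

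Nkd1 encodes an intracellular inhibitor that acts on Dishevelled. Its values were 9.97 in EpiSCs, 10.30 in the rosette, 9.67 and 9.94 in OPCs and 10.05 and 10.58 in oligodendrocytes. Both oligodendrocyte arrays lay above both OPC arrays, with a difference of 0.51 ± 0.23 that did not pass (adjusted p = 0.464). Without oligodendrocyte replicate 1 it was 0.78 with an adjusted p of 0.0146, from a fit whose spread rests on the OPC pair alone.

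Apcdd1, which encodes a membrane glycoprotein that inhibits Wnt signalling, measured 9.60 in EpiSCs, 9.85 in the rosette, 10.23 and 9.51 in OPCs and 10.15 and 10.01 in oligodendrocytes. The 2 OPC arrays were its highest and its lowest value, so the OPC group covered all other arrays. No difference passed (adjusted p = 0.796 against EpiSCs, 0.995 against the rosette and 0.907 for oligodendrocytes against OPCs). The sign of all 3 differences depended on which OPC array was used: without OPC replicate 1 Apcdd1 was at -0.34 against the rosette and -0.08 against EpiSCs, and without OPC replicate 2 oligodendrocytes were at -0.15 against OPCs.

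Among the secreted antagonists, Dkk1, which blocks LRP co-receptors and is a Wnt target, measured 10.45 in EpiSCs, 8.49 in the rosette, 8.49 and 8.60 in OPCs and 8.62 and 8.89 in oligodendrocytes. The EpiSC array stood alone, and all other values were below the median of all values. OPCs were lower than EpiSCs by -1.90 ± 0.19 (3.73-fold, adjusted p = 0.00822). OPCs differed from the rosette by 0.05 ± 0.19 (adjusted p = 0.955) and oligodendrocytes from OPCs by 0.21 ± 0.16 (adjusted p = 0.747).

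Sfrp1, a secreted protein that binds Wnts, measured 10.83 in EpiSCs, 12.43 in the rosette, 11.21 and 11.03 in OPCs and 11.51 and 10.36 in oligodendrocytes. The rosette was the highest, and the oligodendrocyte arrays were so far apart that they enclosed both OPC arrays and the EpiSC array. The OPC difference from the rosette was -1.30 ± 0.47 and did not pass (adjusted p = 0.275). It passed (adjusted p = 0.000268) when the fit held only OPCs and the rosette, or when either oligodendrocyte replicate was left out, so that the oligodendrocyte pair no longer entered the spread. Oligodendrocytes differed from OPCs by -0.19 ± 0.38 (adjusted p = 0.964). Without oligodendrocyte replicate 1 this was -0.76 (adjusted p = 0.0135), and without replicate 2 it was 0.39 (adjusted p = 0.35). Of 8 astrocyte markers, 4 were higher on the passage 3 than on the passage 11 oligodendrocyte array, among them Gfap (10.50 against 8.69), and 4 were lower, among them S100b (10.25 against 12.06). The part of these markers in the Sfrp1 values was not tested.

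Sfrp2, its close relative, measured 10.18 in EpiSCs, 12.36 in the rosette, 9.86 and 9.88 in OPCs and 8.40 and 8.77 in oligodendrocytes. It was lower in OPCs than in the rosette by -2.49 ± 0.22 (adjusted p = 0.00916). The difference of -1.29 ± 0.18 in oligodendrocytes against OPCs missed the threshold (adjusted p = 0.0777). With 1 OPC or oligodendrocyte array left out, the latter difference of Sfrp2 ranged from -1.47 to -1.10. The rosette was its highest array, as it was for Sfrp1, but its EpiSC value was above both OPC values where that of Sfrp1 was below them, and both oligodendrocyte arrays were below all others. Of 20 genes listed as inhibitors apart from the 9, only Sfrp2 was called between OPCs and the rosette, beside 3.13% of all genes. Between OPCs and EpiSCs 2 of the 20 were called, beside 7.01% of all genes. Both were lower in OPCs: Tmem88 at -2.12 ± 0.20 (adjusted p = 0.00641) and Cthrc1 at -0.91 ± 0.17 (adjusted p = 0.0436).

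**Figure D2:**
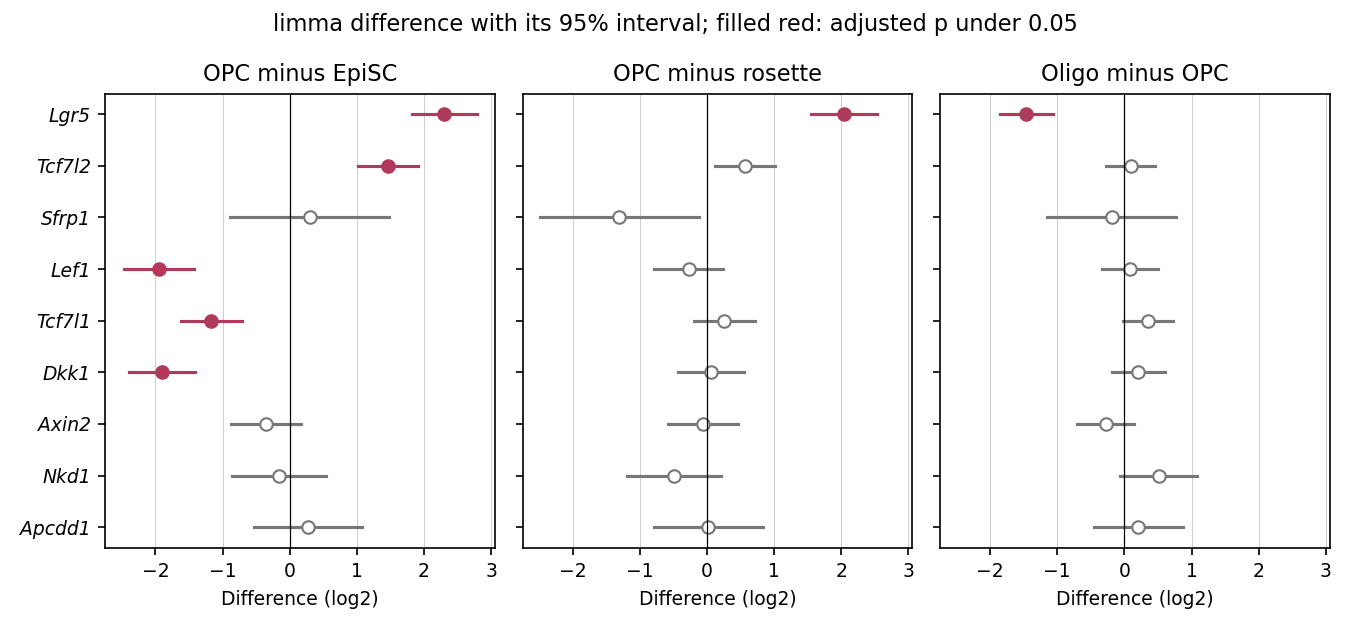
Differences (log2) of the 9 genes in 3 comparisons from the limma fit, with 95% intervals; filled red points have an adjusted p under 0.05. Lgr5 is called in all 3, at 2.30, 2.04 and -1.46, and Tcf7l2, Lef1, Tcf7l1 and Dkk1 are called between OPCs and EpiSCs.

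The step from EpiSCs to the rosette has 1 array on each side and no test. At least 2-fold lower in the rosette were 3 of the 9 genes, Dkk1 by -1.95, Lef1 by -1.67 and Tcf7l1 by -1.43, and 1 was at least 2-fold higher, Sfrp1 by 1.60. The shares over all genes were 10.6% past 2-fold, with 6.91% above and 3.69% below. On the day 5 array Dkk1 was at 8.49, as on the lower OPC array, while Tcf7l1 was below both OPC arrays and Lef1 above both. Lgr5 differed by 0.27, Axin2 by -0.29, Nkd1 by 0.33 and Apcdd1 by 0.26 at this step, near the median absolute difference of all genes, 0.26. No member was 4-fold apart.

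The rest of the pathway was read from 7 lists by role, with 115 genes measured of 117. Between OPCs and EpiSCs 9 were called higher and 7 lower, between OPCs and the rosette 3 higher and 3 lower, and between oligodendrocytes and OPCs none in limma, beside 7.01%, 3.13% and 0.446% of all genes. Of 19 Wnt ligands, Wnt8a, a ligand of the early embryo, measured 11.74 in EpiSCs and 8.15 to 8.44 on the other 5 arrays, and was lower in OPCs by -3.34 ± 0.17 (adjusted p = 0.00213). Wnt3 was lower too (-1.06 ± 0.21, adjusted p = 0.0483). Wnt7a and Wnt7b, ligands made by neural cells, were higher in OPCs than in EpiSCs, by 1.59 ± 0.17 (adjusted p = 0.00886) and 1.06 ± 0.19 (adjusted p = 0.0355), and the rosette already held 10.02 and 10.53. The R-spondin gene Rspo3, whose product is a ligand of Lgr5, was highest in EpiSCs at 9.19, with 7.56 to 7.80 elsewhere, and was lower in OPCs by -1.52 ± 0.19 (adjusted p = 0.0135). Rspo1, Rspo2 and Rspo4 were below the median of all values on all 6 arrays.

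Wls, which carries Wnt proteins to the cell surface, was higher in OPCs than in EpiSCs by 1.54 ± 0.27 (adjusted p = 0.0346), with 10.22 in EpiSCs, 11.76 and 11.75 in OPCs and 12.06 and 11.50 in oligodendrocytes. Among the receptors, Fzd4 (2.35 ± 0.29, adjusted p = 0.014) and Fzd3 (1.68 ± 0.20, adjusted p = 0.0131) were higher in OPCs than in EpiSCs, and Fzd6 (-1.24 ± 0.22, adjusted p = 0.0385) and Fzd10 (-0.92 ± 0.18, adjusted p = 0.0464) were lower. Of 15 genes of the destruction complex and Dishevelled, 1 was called, Amer2, higher in OPCs than in EpiSCs at 1.02 ± 0.19 (adjusted p = 0.0432). Other Wnt target genes gave 2 calls of 19 in each of the comparisons of OPCs with EpiSCs and with the rosette, all higher in OPCs. Over all genes 4.07% were called higher in OPCs than in EpiSCs and 1.26% higher than in the rosette. Myc, the growth-promoting transcription factor, was higher by 2.59 ± 0.36 against EpiSCs (adjusted p = 0.0193) and by 2.30 ± 0.36 against the rosette (adjusted p = 0.043). Id2 was higher against EpiSCs (2.72 ± 0.23, adjusted p = 0.00489), and Tnfrsf19 against the rosette (1.67 ± 0.26, adjusted p = 0.0406). Sp5, a direct Wnt target, stayed between 8.19 and 8.75. Of the 16 calls between OPCs and EpiSCs, those of Wnt8a, Fzd4, Tmem88 and Id2 were kept without either OPC array, that of Myc was lost only without OPC replicate 2, and the other 11 were lost without either one. Of the 6 between OPCs and the rosette, only that of Sfrp2 was kept (adjusted p = 0.038 without OPC replicate 1 and 0.0421 without replicate 2).

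**Figure D3:**
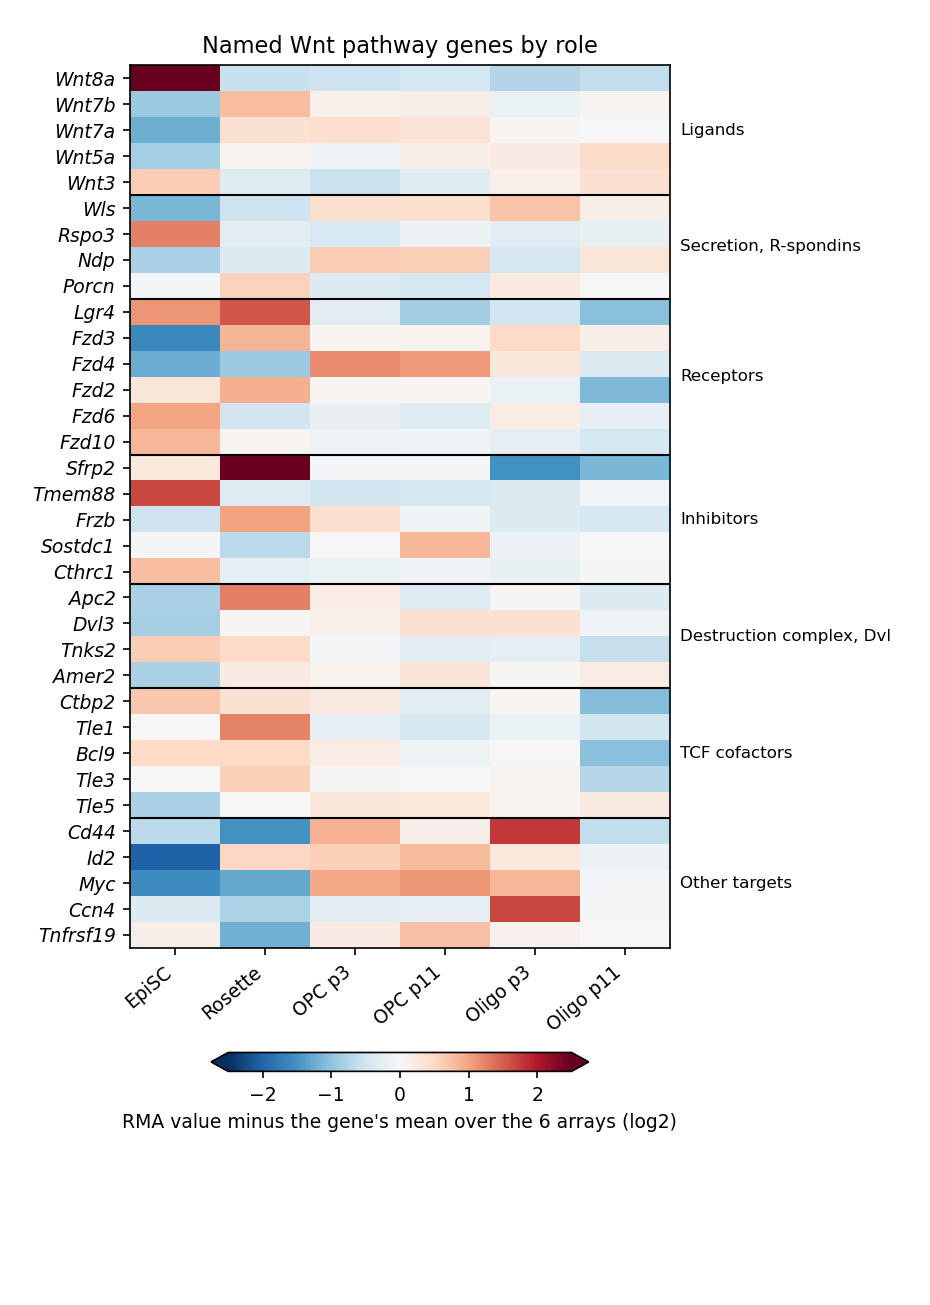
RMA value of each named pathway gene minus its own mean over the 6 arrays (log2), one column for each array, grouped by role; red is above and blue below the mean. Wnt8a, Rspo3 and Tmem88 are highest in the EpiSC column, Sfrp2 and Tle1 in the rosette column, and Fzd4 and Myc in the OPC columns.

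Between passages 0 of the 9 genes and 0% of all genes were called with limma (lowest adjusted p = 0.0928, 2769 genes with an unadjusted p under 0.05, and 1 gene called with a variance trend or 2 with median centring), and the lowest adjusted p among the 9 was 0.357, for Nkd1. With 1 residual degree of freedom, its error measures how unlike the passage effect was in the 2 cell types. From passage 3 to 11 Nkd1 differed by 0.27 in OPCs and 0.53 in oligodendrocytes, Axin2 by 0.22 and 0.27, Lef1 by 0.12 and 0.31 and Dkk1 by 0.12 and 0.26. Sfrp1 differed by -0.18 and -1.15 and Apcdd1 by -0.72 and -0.15, each with most of its difference in 1 of the 2 cell types. The median passage difference was -0.13 over the 9 genes and 0.04 over all genes.

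**Figure D4:**
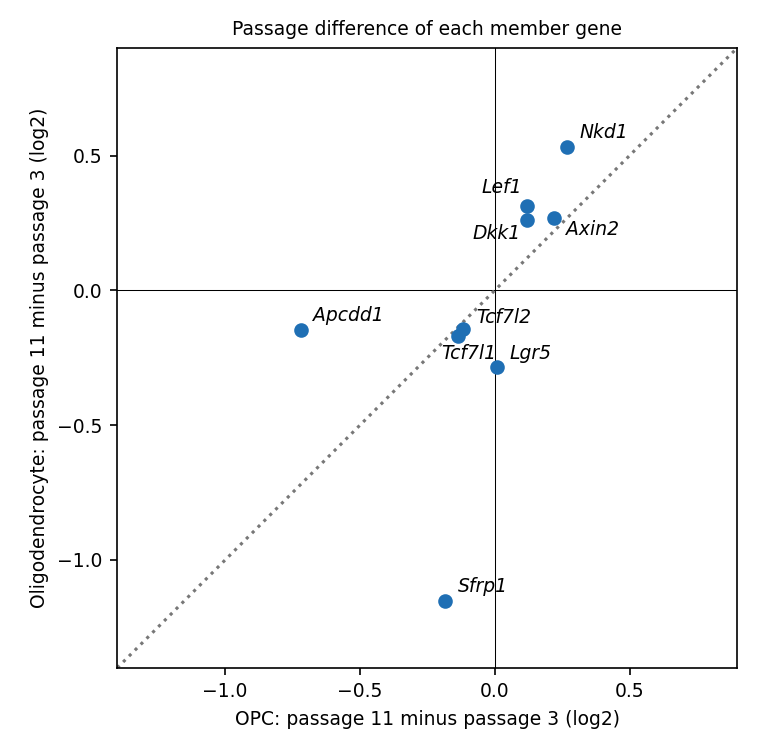
Difference (log2) between passage 11 and passage 3 in OPCs (horizontal) and in oligodendrocytes (vertical) for the 9 genes, from 1 array for each passage and cell type; the dotted line marks equal differences. Sfrp1 lies lowest at -1.15 in oligodendrocytes, and Apcdd1 leftmost at -0.72 in OPCs.

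Genes with the most similar profile were sought by Pearson's r over the 6 arrays among 5446 others with a range of at least 1 log2 unit, for the 6 members that had such a range. The profile of Lgr5 was closest to those of Spry1, an inhibitor of ERK signalling (r = 0.994), Stim2 (r = 0.989) and Id3 (r = 0.987). Spry1 measured 10.09 in EpiSCs, 10.07 in the rosette, 12.12 and 12.05 in OPCs and 10.98 and 10.54 in oligodendrocytes. As with Lgr5, OPCs were highest and oligodendrocytes next, which follows from choosing Spry1 by its r. Its EpiSC value was just above its rosette value, where that of Lgr5 was below. Tcf7l2 was closest to Sema6d, a semaphorin gene (r = 0.999), which measured 8.82 in EpiSCs and 12.46 in passage 3 oligodendrocytes. Dkk1 was closest to Nanog (r = 0.998), Lef1 to B3gnt7 (r = 0.999), Tcf7l1 to Tomm5 (r = 0.993) and Sfrp1 to Scaper (r = 0.995). For Dkk1 and Lef1 the single EpiSC array carries most of the range, so any gene high only in EpiSCs gives an r near 1. Tcf7l1 was also highest there, but without that array it still spanned 0.69 of its range of 1.43. All these likenesses are descriptions of 6 arrays.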

How the data were processed

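RNA of 6 cultures was measured on 1 array each. The authors deposited 1 log2 value for each probe set and array. RMA and Affymetrix Expression Console are named per the submitters' processing notes, without version or options. Values lay between 3.26 and 14.9, and the medians of the arrays between 8.98 and 9.04. As no detection call was used, dim values may be background, which shrinks differences. Precision is limited by the number of arrays.

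Of 35556 rows, 21789 carried 1 gene symbol in the platform annotation, 1621 several and 12146 none. The row with the highest mean was kept for a gene with several, which left 19938 genes. Some genes of the lists were not analysed here.

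Differences were fitted by lmFit and eBayes of limma 3.58.1 (R 4.3.3), with two-sided p-values adjusted by Benjamini-Hochberg over all genes. One fit of all 6 arrays with 4 cell types had 2 residual and 3.32 prior degrees of freedom. Passage was fitted on 4 arrays, adjusting for cell type. Replicate 1 is passage 3 and replicate 2 passage 11. The labels give oligodendrocytes as made from OPCs of the same passage number, but not whether the 2 arrays of a passage share a culture, so passage was used as a block in an alternative. The passage differences of the 2 cell types correlated at 0.503 across genes. The code was tested on simulated data.

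The 10 genes were given by name, and of each pathway list the 4 genes with the largest range, if their brightest array was above the overall median, and up to 3 called genes a direction were named, with a few others (Lgr6, Sp5, Ctnnb1, the other R-spondins and the markers) named after their values were seen. The members and lists were chosen with earlier results of these data known. Alternatives were the mean of a gene's rows, leaving out dim genes, median centring, repeated quantile normalization, a variance trend, a robust prior, all rows, passage as a block, only the groups compared, and each of the 4 OPC and oligodendrocyte arrays left out.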

Additional observations from a re-analysis of the deposited data

Results flagged for a closer look

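The difference between oligodendrocytes and OPCs had opposite signs at the 2 passages for 3 genes, which was not tested, since each value comes from 1 pair of arrays. Sfrp1 was at 0.30 at passage 3 and -0.67 at passage 11, Apcdd1 at -0.078 and 0.50, and Lef1 at -0.011 and 0.18. The passage difference of Lgr5 likewise had opposite signs in the 2 cell types, 0.0093 in OPCs and -0.29 in oligodendrocytes, also not tested. For Sfrp1 the value that stands apart is that of passage 11 oligodendrocytes, 10.36, and for Apcdd1 that of passage 11 OPCs, 9.51.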

How the results depend on the processing

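Of 459 values of the 9 genes under other settings, 432 kept their direction and, where tested, their side of the threshold. For the untested step from EpiSCs to the rosette, kept means the same direction and a shift below the gene's fitted standard deviation. Of the rest, 13 lost a call, 5 gained one, 8 changed sign and 1 moved further: Tcf7l2 was 0.73 above EpiSCs in the rosette after repeated quantile normalization. Each of the 9 had 1 row, so the mean of a gene's rows could not change its difference. Directions could change only with median centring, repeated quantile normalization or an array left out, so the 432 are not independent checks. With each of the 4 OPC and oligodendrocyte arrays left out in turn, the genes called ranged from 156 to 2897 (OPCs against the rosette), 2 to 2919 (oligodendrocytes against OPCs) and 470 to 4154 (OPCs against EpiSCs). Members called higher ranged from 0 to 1, 0 to 1 and 1 to 2, and members called lower from 0 to 1, 0 to 2 and 2 to 3 in the same comparisons. Leaving out an oligodendrocyte array raises the counts because the spread then rests on the closer OPC pair. With all rows tested 227, 1 and 797 genes were called, and no member was lower in oligodendrocytes (0 of 9). With passage as a replicate block 1206 genes were called against the rosette and 2318 against EpiSCs, and 0 members were called lower in oligodendrocytes (Lgr5 adjusted p = 0.0534); the block changed no other call of the 9 genes or of the called pathway genes. With only the groups compared 2897 and 4154 genes were called, and 1 member, Sfrp1, was lower in OPCs than in the rosette. For oligodendrocytes against OPCs, median centring called 157 genes and repeated quantile normalization 14 (100% of them higher, against 88.8%), and the latter and a variance trend called 0 members lower. Between passages centring called 2 genes and the trend 1. At 4-fold, 507 genes and 0 members in either direction were apart between the rosette and EpiSCs.

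Signs changed only for differences that were not called. Against the rosette, Axin2 was at 0.030 after repeated quantile normalization and ranged with 1 array left out from -0.17 to 0.053, Apcdd1 from -0.34 to 0.38, and Dkk1 from -0.0066 to 0.11. Against EpiSCs Apcdd1 ranged from -0.083 to 0.64. For oligodendrocytes against OPCs, Lef1 ranged from -0.072 to 0.24, Sfrp1 from -0.76 to 0.39 and Apcdd1 from -0.15 to 0.57. Of 16 pathway genes called between OPCs and EpiSCs, 5 stayed called without OPC replicate 1, 4 without replicate 2 and 7 over all rows; of 6 called against the rosette, 1, 1 and 1 stayed. None of them changed sign under any setting run. The passage comparison with an array left out has no residual degrees of freedom and was not run. The cause of these changes was not tested beyond the stated make-up of each fit.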

Other observations

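The passage 3 oligodendrocyte array was the highest for 4 of 19 other Wnt target genes, among them Ccn4 and Cd44, which are named after their values were seen. It was also the highest for 1 of 19 ligands, 2 of 7 secretion and R-spondin genes, 2 of 19 receptors and 2 of 20 listed inhibitors. Of 15 destruction complex and Dishevelled genes it was the highest for 2, and of 16 TCF cofactors for 0. The share over all genes was not counted, so these counts are descriptions only. Ccn4, a secreted matrix protein gene, measured 9.96 on the passage 3 oligodendrocyte array and 7.51 to 8.27 on the other 5 arrays. Cd44, a hyaluronan receptor gene, measured 11.26 on that array, 10.37 and 9.65 in OPCs and 8.89 in passage 11 oligodendrocytes. Neither was called with limma in any of the 4 tested comparisons. Of 8 pericyte and fibroblast markers, 4 were highest on this array and 4 were not, and 6 were higher there than in passage 11 oligodendrocytes and 2 lower. Acta2, a contractile gene, had the widest gap, 13.79 against 11.87. The part of other cell types in these values was not tested.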
